A study of Homo sapiens with 60 samples.

Results

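SW1783 cells exposed for 24 h to 50 µg/mL of a water extract of Polygalae Radix were compared with SW1783 cells exposed to 10 µg/mL of the same extract. The comparison holds 6 of the 60 RNA-seq libraries of the series, 3 at each dose, chosen by their treatment labels, and it covers the 16934 genes that passed a filter on low counts. SW1783 is an established human astrocytoma line. Polygalae Radix is the dried root of Polygala, used in East Asian medicine and rich in triterpenoid saponins, and it was extracted in hot water, filtered and freeze-dried. Beside this pair stand 3 libraries of the same extract at 250 µg/mL, 3 each of a water extract of Aucklandiae Radix at 100 and 20 µg/mL, and 3 of the DMSO vehicle, all at 24 h in the same line. The series description sets the top dose of an extract at its IC20 where that lies under 500 µg/mL, with the lower doses diluted from it 5-fold at a time. Vehicle is labelled as 0.1% DMSO and described for the series as 2%, and no DMSO content is given for the extracts. By the first part of their library names, all Polygalae and Aucklandiae libraries belong to set 4 and the vehicle libraries to set A1. The 2 doses therefore share a set, and vehicle levels are quoted only for orientation. Separate cultures are not stated for the 3 libraries of a dose, so the p-values measure only how these libraries spread.

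The 6 libraries held 22.58 to 30.12 M (mega) expected counts each and correlated with the others of their dose at a mean r of 0.995 or higher across genes. Transcripts of the mitochondrial genome took 9.93, 11.2 and 11.6% of counts at 50 µg/mL, against 10.97, 7.87 and 9.92% at 10 µg/mL, and these groups overlapped. Of 10 markers of astrocytic and glial cells, GFAP, S100B, AQP4 and ALDH1L1, which define mature astrocytes, were at or near 0 CPM in both groups, whereas VIM, CD44, NES, SOX9, SLC1A3 and CHI3L1 passed the filter. Markers of other cell types that fell below the filter included MOG, SOX10, CD3E, AIF1, TYROBP, VWF and EPCAM, while other markers of each of these types passed it. Levels are given as CPM, counts per M of the normalised library total. GFAP averaged 0.0685 CPM at 50 µg/mL and 0.106 CPM at 10 µg/mL, and VIM had 3569, 3483 and 3598 CPM at 50 µg/mL, against 4306, 4110.5 and 4241 CPM at 10 µg/mL.

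Cells that meet electrophilic or oxidising compounds release the transcription factor NRF2, which switches on genes for glutathione, thioredoxin and heme breakdown. Damaged or overloaded lysosomes release TFEB, TFE3 and MITF, which bind E-box sequences in front of lysosome and autophagy genes. The endoplasmic reticulum folds secreted and membrane proteins with a set of chaperones whose genes carry a stress element read by ATF6, and its largest clients in mesenchymal and astroglial tumour cells include collagens and other matrix proteins. Released interferon or cytosolic nucleic acid switches on a separate set of antiviral genes.

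At 50 µg/mL, heme oxygenase, the ferritin genes, the secreted stress cytokine gene GDF15 and most genes of the lysosome list were higher than at 10 µg/mL, and nearly all matrix genes and most chaperone genes of the endoplasmic reticulum were lower. The edgeR quasi-likelihood test called 2974 genes, 17.6% of those tested, at a Benjamini-Hochberg adjusted p under 0.05, with 1470 higher (8.68%) and 1504 lower (8.88%). The median log2 fold change was 0.29 among the genes that rose and -0.28 among those that fell, against 0.0087 over all tested genes. Fold changes below are log2, 50 over 10 µg/mL, with ± the SE, and list medians are of these. Of each gene list the 4 members with the smallest p are named by rule, and other members were named after their values were seen. Counts of list members stand beside these shares of all tested genes, 8.68% higher and 8.88% lower. A change of 2-fold or more was called for 59 genes upward (0.348%) and 47 downward (0.278%). All 3 libraries at 50 µg/mL lay above all 3 at 10 µg/mL in 2642 tested genes (15.6%) and below them in 2650 (15.6%). Of the 2974 called genes 2873 were separate in this way, so separate doses are usual for a called gene. Refitted with all 60 libraries sharing the estimate of spread, the test called 1943 genes.

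**Figure D1:**
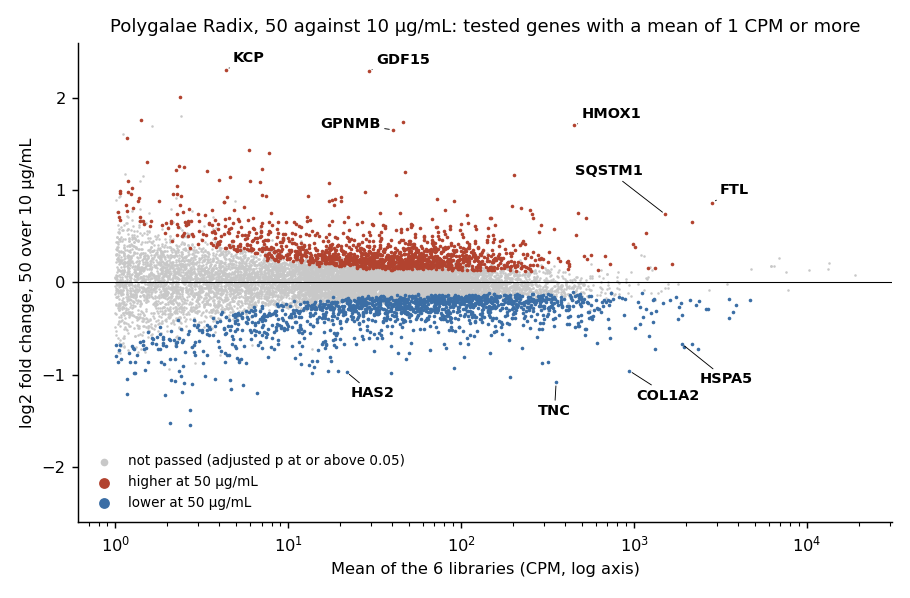
Each point is 1 of the 13851 tested genes with a mean of at least 1 CPM, placed by its mean over the 6 libraries (log axis) and its log2 fold change, 50 over 10 µg/mL. Genes called higher at 50 µg/mL are red and genes called lower are blue; GDF15 and KCP reach a log2 fold change of about 2.3, and the largest labelled falls, TNC and HAS2, lie near -1.

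Among the 14 largest rises were genes for a secreted cytokine, heme breakdown and a lysosomal membrane protein. The 14 largest rises and falls were picked among called genes with separate doses, so the separation given for them follows from that rule. GDF15, a stress-induced cytokine of the TGF-beta family (ENSG00000130513, chromosome 19, 18374731 to 18389176, plus strand), had 47.7, 48.1 and 49.3 CPM at 50 µg/mL, against 8.82, 10.99 and 9.81 CPM at 10 µg/mL (adjusted p = 3.1e-13, log2 2.29 ± 0.09). The 2 doses did not overlap, and vehicle averaged 2.88 CPM in its own set. HMOX1, heme oxygenase 1, which opens the heme ring and frees its iron (ENSG00000100292, chromosome 22, 35380361 to 35394214, plus strand), had 703, 673 and 686 CPM at 50 µg/mL, against 199, 224 and 208 CPM at 10 µg/mL (adjusted p = 6.2e-14, log2 1.71 ± 0.06). Again every library at 50 µg/mL stood above every library at 10 µg/mL. GPNMB, a transmembrane glycoprotein of melanosomes and lysosomes (ENSG00000136235, chromosome 7, 23235967 to 23275108, plus strand), had 61.3, 61.1 and 60.9 CPM at 50 µg/mL, against 18.6, 20.5 and 19.2 CPM at 10 µg/mL (adjusted p = 7.2e-15, log2 1.66 ± 0.05). Its 3 values at the higher dose lay within 1 CPM of each other and far above the lower dose.

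KCP, which encodes a secreted modulator of BMP signalling, had 8.01, 6.58 and 7.13 CPM at 50 µg/mL, against 1.29, 1.77 and 1.33 CPM at 10 µg/mL (adjusted p = 3e-09, log2 2.31 ± 0.16), and none of its deposited expected counts was whole. IGFN1, an immunoglobulin and fibronectin domain gene, had 65.98, 69.1 and 77.3 CPM at 50 µg/mL, against 19.8, 24.7 and 19.4 CPM at 10 µg/mL (adjusted p = 1e-09, log2 1.74 ± 0.11). Both genes kept their doses apart. SPP1, the secreted matricellular protein osteopontin, had 11.02, 11.9 and 10.5 CPM at 50 µg/mL, against 4.097, 4.51 and 4.07 CPM at 10 µg/mL (adjusted p = 1.9e-08, log2 1.40 ± 0.11). TM4SF19, a tetraspanning membrane protein, had 8.399, 8.72 and 8.85 CPM at 50 µg/mL, against 3.04, 3.496 and 3.04 CPM at 10 µg/mL (adjusted p = 1.4e-09, log2 1.44 ± 0.09). In both genes the doses were separate. Others of the 14 largest rises were OSGIN1 (1.2), an oxidative stress response gene described with the NRF2 targets, ARHGAP27 (1.15), TMEM255A (1.11), CRACD (1.1), the mitochondrial biogenesis coactivator gene PPARGC1A (1.08) and the amino acid transporter gene SLC7A8 (1.08), all as log2 fold changes.

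**Figure D2:**
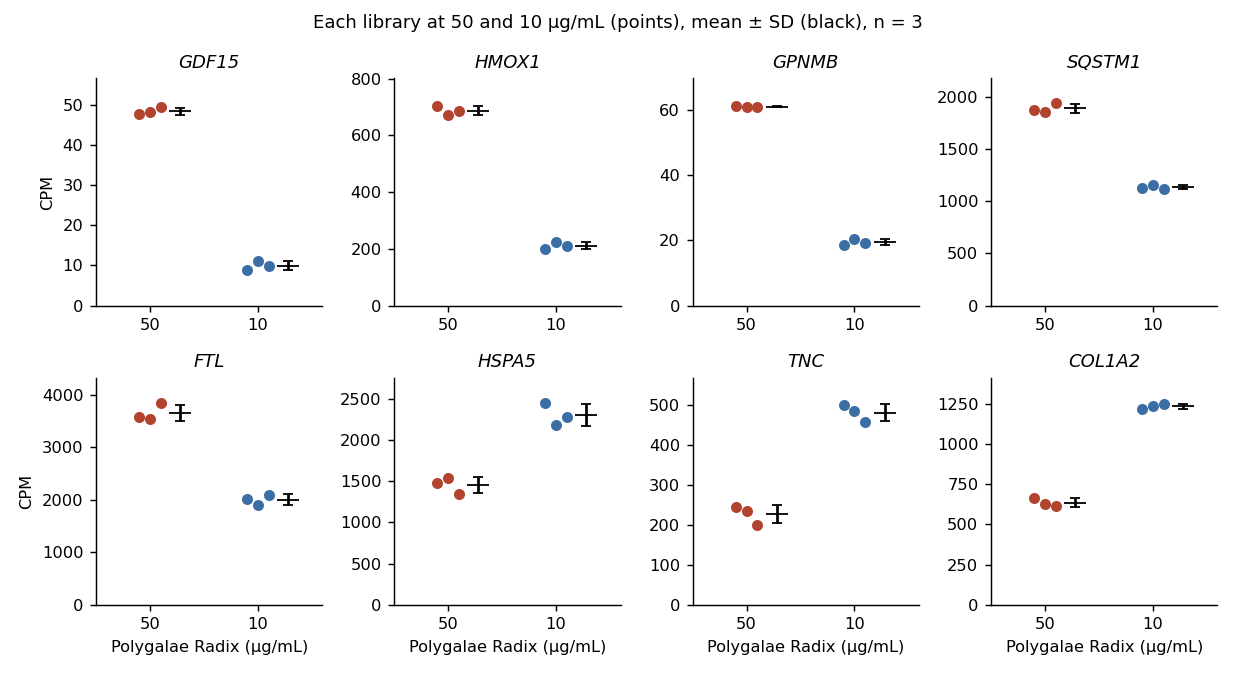
CPM of 8 genes in each library at 50 µg/mL (left, red) and 10 µg/mL (right, blue), with the mean and SD of the 3 libraries in black; every axis starts at 0. In all 8 genes the 2 doses are separate, with GDF15, HMOX1, GPNMB, SQSTM1 and FTL higher and HSPA5, TNC and COL1A2 lower at 50 µg/mL.

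Of 24 tested NRF2 targets, 16 rose and 1 fell (median log2 fold change 0.37). The fall did not pass without replicate 1 or 2 at 50 µg/mL or without replicate 1 or 3 at 10 µg/mL. Nor did it pass with a replicate block or with only the 6 libraries compared. The summed level of the targets was 4324, 4345 and 4347 CPM at 50 µg/mL, against 3121, 3218 and 3193 CPM at 10 µg/mL, without overlap. After HMOX1 the smallest p-values belonged to TXNRD1, OSGIN1 and SRXN1. OSGIN1 had 65.6, 61.7 and 69.9 CPM at 50 µg/mL, against 26.5, 29.1 and 30.2 CPM at 10 µg/mL (adjusted p = 3.9e-10, log2 1.2 ± 0.07). TXNRD1, thioredoxin reductase 1, had 648, 675 and 639 CPM at 50 µg/mL, against 396, 419 and 394 CPM at 10 µg/mL (adjusted p = 3.9e-10, log2 0.70 ± 0.04). SRXN1, sulfiredoxin, which repairs overoxidised peroxiredoxins, had 184, 180.1 and 187 CPM at 50 µg/mL, against 114, 112 and 114 CPM at 10 µg/mL (adjusted p = 1.6e-09, log2 0.70 ± 0.05). The doses were separate in each. The genes of glutathione supply rose too, namely the cystine transporter SLC7A11 (0.74), both subunits of glutamate-cysteine ligase, GCLC (0.63) and GCLM (0.38), and glutathione reductase GSR (0.63). The aldo-keto reductases AKR1C1 and AKR1C2 (0.66 each), which share sequence and could share reads, and AKR1B10 (0.62) rose, and the quinone reductase NQO1 rose by 0.22. PGD (0.16) and TALDO1 (0.22), enzymes of the pentose phosphate pathway, rose as well.

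Genes of iron storage moved with heme oxygenase, and the iron uptake receptor moved the other way. FTL, the ferritin light chain, had 3578, 3547 and 3836 CPM at 50 µg/mL, against 2022, 1897 and 2097 CPM at 10 µg/mL (adjusted p = 2.6e-10, log2 0.87 ± 0.05). FTH1, the ferritin heavy chain that oxidises iron for storage, had 2606, 2588 and 2777 CPM at 50 µg/mL, against 1687, 1653 and 1715 CPM at 10 µg/mL (adjusted p = 4.3e-10, log2 0.66 ± 0.04). Both ferritin genes were higher in every library at 50 µg/mL. TFRC, the transferrin receptor that brings iron into the cell, had 615, 611 and 552 CPM at 50 µg/mL, against 849, 859 and 799 CPM at 10 µg/mL (adjusted p = 8.6e-07, log2 -0.50 ± 0.05), and ACO1, whose protein binds iron-responsive RNA elements when iron is scarce, fell by 0.21 (adjusted p = 0.0018). SLC25A37, a mitochondrial iron importer, rose by 0.15, so that 3 of 10 tested members of the list rose and 2 fell. Of 5 tested metallothionein and zinc genes only MT2A passed (0.16, adjusted p = 0.018), a call that ended without replicate 1 or 2 at 50 µg/mL or replicate 2 or 3 at 10 µg/mL. The MT2A call also ended in the fit of all 60 libraries and with only the 6 libraries compared.

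Lysosome and autophagy genes rose as a group: of 30 tested members 22 rose and none fell (median 0.28). Their summed level was 7508, 7297 and 7499.5 CPM at 50 µg/mL, against 5798, 5699 and 5709 CPM at 10 µg/mL, with no overlap. Next to GPNMB the smallest p-values belonged to NPC1, SQSTM1 and ATP6V1B2. NPC1, the membrane protein that exports cholesterol from lysosomes, had 617, 587 and 572 CPM at 50 µg/mL, against 349, 363 and 343 CPM at 10 µg/mL (adjusted p = 1.4e-10, log2 0.75 ± 0.04). SQSTM1, the autophagy cargo receptor p62, had 1875, 1862 and 1939.9 CPM at 50 µg/mL, against 1128, 1159 and 1118 CPM at 10 µg/mL (adjusted p = 3.8e-10, log2 0.74 ± 0.04). ATP6V1B2, a subunit of the proton pump that acidifies lysosomes, had 181, 179 and 180.3 CPM at 50 µg/mL, against 129, 127 and 125 CPM at 10 µg/mL (adjusted p = 2.6e-08, log2 0.51 ± 0.04). Each of these genes was separate between doses. Among the remaining risen members were 4 other pump subunits, ATP6V0D2 (1.46), ATP6V1C1 (0.47), ATP6V0D1 (0.38) and ATP6V1H (0.34). ATP6V0D2 was at a low level, with means of 1.46 CPM at 50 µg/mL and 0.529 CPM at 10 µg/mL, and its SE was 0.34. The calcium channel MCOLN1 (0.48), the proteases CTSD (0.52) and CTSL (0.26), and the autophagosome proteins GABARAPL1 (0.52) and MAP1LC3B (0.35) rose too. The membrane proteins LAMP1 (0.07, adjusted p = 0.23) and LAMP2 (-0.06, adjusted p = 0.61) and the protease CTSB (0.07, adjusted p = 0.27) did not pass. Nor did the pump subunit ATP6V1A (0.15, adjusted p = 0.072).

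Because TFEB, TFE3 and MITF read E-box sequences, the 250 bases before the annotated start of 4 genes that rose are shown, with those letters in capitals. The sequences are from RefSeq on GRCh38.p14, 5′ to 3′ on the gene's strand, at chr7:23246525-23246774, plus strand (GPNMB), chr3:196338389-196338638, minus strand (TM4SF19), chr19:7522374-7522623, plus strand (MCOLN1) and chr16:67481158-67481407, minus strand (ATP6V0D1). Capitals mark TCACGTGA in the lower pair and, in the upper pair, TCACATGA, which reads TCATGTGA on the other strand and is called the M box.
GPNMB: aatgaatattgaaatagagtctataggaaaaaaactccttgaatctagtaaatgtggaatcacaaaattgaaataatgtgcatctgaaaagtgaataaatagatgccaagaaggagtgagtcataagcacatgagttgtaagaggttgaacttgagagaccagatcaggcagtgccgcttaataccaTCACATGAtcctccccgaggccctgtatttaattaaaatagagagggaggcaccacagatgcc
TM4SF19: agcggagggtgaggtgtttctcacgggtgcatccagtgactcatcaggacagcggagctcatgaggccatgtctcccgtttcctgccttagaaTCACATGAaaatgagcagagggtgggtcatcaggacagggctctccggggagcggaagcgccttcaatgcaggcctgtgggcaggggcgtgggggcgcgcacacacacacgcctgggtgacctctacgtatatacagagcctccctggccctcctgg
MCOLN1: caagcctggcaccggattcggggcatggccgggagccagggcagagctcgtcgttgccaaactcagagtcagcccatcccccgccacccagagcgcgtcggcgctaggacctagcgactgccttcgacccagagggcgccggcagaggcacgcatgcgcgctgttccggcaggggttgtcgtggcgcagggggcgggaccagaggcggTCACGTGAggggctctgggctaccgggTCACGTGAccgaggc
ATP6V0D1: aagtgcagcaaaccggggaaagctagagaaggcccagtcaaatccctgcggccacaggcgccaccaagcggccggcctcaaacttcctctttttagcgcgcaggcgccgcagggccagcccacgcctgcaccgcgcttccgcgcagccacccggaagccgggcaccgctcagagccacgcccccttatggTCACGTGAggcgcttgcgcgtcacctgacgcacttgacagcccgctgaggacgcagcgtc
GPNMB and TM4SF19, both among the 14 largest rises, hold 1 M box each, which ends 56 bases before the start in GPNMB and 150 before it in TM4SF19. MCOLN1 holds TCACGTGA at 2 places and ATP6V0D1 at 1. These genes were picked for display after their values were seen, and a match of letters is not evidence of binding.

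The share of promoters with these letters was counted over all genes. A RefSeq window, from 250 bases before to 50 after the start, was found for 11698 of the tested genes, with 1 window a gene. On either strand, TCACGTGA was present in 52 of 1136 genes that rose (4.58%), in 7 of 1213 that fell (0.577%) and in 218 of all 11698 (1.86%). The M box TCATGTGA was present in 33 that rose (2.9%), 3 that fell (0.247%) and 104 of all (0.889%), and no match of one overlapped a match of the other. Risen genes with TCACGTGA included CLN3 (0.41) and NAGPA (0.26), which serve lysosomes, and the small MAF protein gene MAFF (0.51); risen genes with TCATGTGA included GRN (0.25), TPP1 (0.27), SPNS1 (0.33) and LAMTOR1 (0.30), all of lysosomes, and MAFG (0.58), all chosen after their values were seen. Among lysosome list members with a window, 4 of 17 held TCACGTGA and 1 held TCATGTGA. For NRF2, the shorter core TGACNNNGC was in 214 of the genes that rose (18.8%), 152 that fell (12.5%) and 1772 of all (15.1%), with 4 of 17 NRF2 targets (23.5%), 8 of 17 lysosome genes (47.1%), 6 of 18 interferon-stimulated genes (33.3%) and 3 of 16 chaperones of the endoplasmic reticulum (18.8%) among them. Its match overlapped one of TCACGTGA in 50 genes. These shares are descriptions, the motifs were chosen with earlier results of these data known, and no test was made of them.

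Stress genes downstream of ATF4, the factor that answers amino acid shortage and blocked translation, were mixed: of 28 tested, 8 rose and 2 fell (median 0.07). Those that rose beside GDF15 included NUPR1, with 24.3, 26.97 and 26.997 CPM at 50 µg/mL, against 13.6, 12.8 and 16.1 CPM at 10 µg/mL (adjusted p = 5e-08, log2 0.88 ± 0.07), and the eIF2 alpha phosphatase subunit PPP1R15A, with 190.4, 195 and 186 CPM at 50 µg/mL, against 126, 120.4 and 124 CPM at 10 µg/mL (adjusted p = 1.6e-07, log2 0.62 ± 0.06). SLC3A2, the shared heavy chain of several amino acid exchangers including SLC7A11, had 357, 330.5 and 369.8 CPM at 50 µg/mL, against 240.1, 226 and 223 CPM at 10 µg/mL (adjusted p = 4.7e-08, log2 0.62 ± 0.05). Doses were separate in these 3 genes, while the serine synthesis gene PHGDH (-0.25) and the folate gene ALDH1L2 (-0.37) fell. The other risen members were CEBPB (0.53), DDIT3 (0.36), SLC7A5 (0.30) and TRIB3 (0.26). Usual markers of this response were thus split, since DDIT3 and TRIB3 rose. The asparagine synthetase gene ASNS (-0.19, adjusted p = 0.16) and the glutathione-degrading enzyme gene CHAC1 (-0.20, adjusted p = 0.26) were among the 18 members that did not pass. Without replicate 3 at 50 µg/mL 4 members fell.

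Cytosolic heat shock genes rose in 8 of 18 tested members and fell in none (median 0.15). The HSP70 genes HSPA1A (289, 285 and 275 CPM at 50 µg/mL, against 164, 160.5 and 162 CPM at 10 µg/mL, adjusted p = 3.8e-10, log2 0.80 ± 0.05) and HSPA1B (0.83, adjusted p = 1.4e-07) are near-identical copies, and their reads cannot be fully told apart. The small heat shock protein gene HSPB8 (0.48) and its partner BAG3 (0.36), which steer misfolded proteins into autophagy, rose with them. BAG3 had 106, 103 and 105 CPM at 50 µg/mL, against 82.3, 80.9 and 82.5 CPM at 10 µg/mL. The doses did not overlap in BAG3 or HSPA1A. Of 31 tested proteasome subunits, which degrade tagged proteins, 3 rose, 1 fell and 27 did not pass (median 0.04). Of all tested genes 8.68% rose and 8.88% fell. PSMD11 rose by 0.26, PSMC4 by 0.13 and PSMC2 by 0.12, and PSMD2 fell by 0.19. Only 1 rise was left without replicate 2 or 3 at 50 µg/mL or replicate 3 at 10 µg/mL. PSMC2 and PSMC4 also did not pass with upper quartile scaling, in the fit of all 60 libraries or with only the 6 libraries compared.

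Interferon-stimulated genes rose in 12 of 26 tested members and fell in none (median 0.30). IFIT3, an antiviral tetratricopeptide protein, had 95.8, 95.4 and 91.8 CPM at 50 µg/mL, against 53.5, 49.6 and 47.9 CPM at 10 µg/mL (adjusted p = 1.1e-08, log2 0.91 ± 0.07). IFIT2, of the same family, had 41.1, 40.998 and 29.03 CPM at 50 µg/mL, against 19.003, 19.97 and 17.4 CPM at 10 µg/mL (adjusted p = 3.9e-06, log2 0.98 ± 0.12). MX1, an antiviral GTPase, had 23.7, 20.3 and 25.6 CPM at 50 µg/mL, against 11.3, 13.98 and 12.2 CPM at 10 µg/mL (adjusted p = 0.00016, log2 0.90 ± 0.15). Each was higher in all 3 libraries at 50 µg/mL, and IFIT2 in replicate 3 lay below its replicates. IFIT1 rose by 0.65, while ISG15 (0.21, adjusted p = 0.071) and IFI6 (0.03, adjusted p = 0.88), widely used markers, did not pass. The letters GAAANNGAA, the core of the element these genes share, were in 14 of 18 members with a promoter window, in 82 of 1136 risen genes (7.22%) and in 760 of all 11698 genes (6.5%).

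Inflammatory and signalling lists were mixed. Of 20 tested NF-kB and cytokine genes, 5 rose and 3 fell (median 0.17). ICAM1, the leukocyte adhesion receptor, had 115, 116 and 122 CPM at 50 µg/mL, against 64.1, 65.3 and 62.6 CPM at 10 µg/mL (adjusted p = 4.3e-10, log2 0.88 ± 0.05). LIF, a cytokine of the interleukin-6 family, had 49.6, 54.7 and 60.3 CPM at 50 µg/mL, against 26.9, 30.4 and 28.4 CPM at 10 µg/mL (adjusted p = 1.9e-05, log2 0.94 ± 0.13). IL11, another cytokine of that family, went the other way with 24.6, 25.6 and 26.01 CPM at 50 µg/mL, against 36.7, 37.5 and 38.5 CPM at 10 µg/mL (adjusted p = 1.2e-07, log2 -0.56 ± 0.05). The doses were separate in all 3. IL6 (0.50), IL1B (0.36) and the mitochondrial superoxide dismutase SOD2 (0.29) also rose, and the chemokine CCL2 (-0.47) and the apoptosis inhibitor BIRC3 (-0.54) fell. Among ERK feedback genes 6 of 14 rose (median of the list 0.15), including PHLDA1 (385, 432 and 415 CPM at 50 µg/mL, against 281, 273 and 269 CPM at 10 µg/mL, adjusted p = 5.9e-08, log2 0.58 ± 0.05) and the ERK phosphatase genes DUSP5 (0.41) and DUSP4 (0.35). SPRED3 fell (-0.25), a call that ended without replicate 1 or 2 at 50 µg/mL or replicate 2 at 10 µg/mL. The SPRED3 call also ended in the fit of all 60 libraries and with only the 6 libraries compared. Immediate early genes rose in 5 of 19, JUN (0.46), DUSP1 (0.42), KLF6 (0.26), JUNB (0.23) and FOSL1 (0.22), and fell in none (median 0.23). Of these rises 2 were left without replicate 1 at 50 µg/mL or replicate 2 at 10 µg/mL, and 3 without replicate 3 at 10 µg/mL.

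Genes under p53 rose in 7 of 20 tested members (median 0.20), led by the cell cycle inhibitor CDKN1A with 32.4, 25.7 and 33.01 CPM at 50 µg/mL, against 19.98, 17.9 and 20.7 CPM at 10 µg/mL (adjusted p = 1.8e-05, log2 0.64 ± 0.09), by PHLDA3 (0.41) and by GADD45A (0.34). TP53I3 fell (-0.33), a call that ended without replicate 1 or 2 at 50 µg/mL or replicate 3 at 10 µg/mL, and without that last library the rises numbered 4. In the fit of all 60 libraries the TP53I3 call ended too. In the BCL2 family, which sets the threshold of apoptosis, 5 of 14 rose and none fell (median 0.17). The death-promoting BH3-only gene HRK had 1.41, 1.02 and 0.605 CPM at 50 µg/mL, against 0.273, 0.337 and 0.266 CPM at 10 µg/mL (adjusted p = 0.00082, log2 1.76 ± 0.34), a low level with a wide spread at 50 µg/mL. PMAIP1 (0.37), also BH3-only, BAX (0.23), and the protective BCL2 (0.38) and BCL2L2 (0.28) rose. FOXO-responsive genes rose in 6 of 15 and fell in 2, TXNIP and SESN3 (-0.24; median of the list 0.10). The call of SESN3 ended without replicate 1 or 3 at 50 µg/mL or replicate 2 or 3 at 10 µg/mL. It also ended by DESeq2, without the low-count filter, in the fit of all 60 libraries and with only the 6 libraries compared. FBXO32, the ubiquitin ligase atrogin-1, had 347, 314 and 285 CPM at 50 µg/mL, against 200.2, 179.5 and 169 CPM at 10 µg/mL (adjusted p = 2.5e-07, log2 0.79 ± 0.08). IRS2, an adaptor of the insulin receptor, had 112, 103 and 90.9 CPM at 50 µg/mL, against 60.8, 60.4 and 56.5 CPM at 10 µg/mL (adjusted p = 1.6e-06, log2 0.78 ± 0.09). TXNIP, a brake on glucose uptake, had 6.06, 6.08 and 5.92 CPM at 50 µg/mL, against 10.3, 8.13 and 8.06 CPM at 10 µg/mL (adjusted p = 0.00021, log2 -0.55 ± 0.09). Doses were separate in each of these 3 genes.

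Most matrix genes were lower at 50 µg/mL. Of 14 tested collagens 12 fell and none rose (median -0.65), and of 24 basement membrane genes and matrix glycoproteins 22 fell and none rose (median -0.44). In bulk RNA, fewer cells that make a transcript and less of it per cell cannot be told apart. COL1A2, a chain of type I collagen (ENSG00000164692, chromosome 7, 94394561 to 94431232, plus strand), had 664, 627 and 615 CPM at 50 µg/mL, against 1217, 1232 and 1250.4 CPM at 10 µg/mL (adjusted p = 1.2e-11, log2 -0.96 ± 0.04). COL1A1, its partner chain, had 1734, 1531 and 1711 CPM at 50 µg/mL, against 2708, 2465 and 2753 CPM at 10 µg/mL (adjusted p = 1.1e-08, log2 -0.67 ± 0.05). COL5A1, of type V collagen, had 1046, 981 and 962 CPM at 50 µg/mL, against 1619, 1639 and 1685 CPM at 10 µg/mL (adjusted p = 3.1e-09, log2 -0.73 ± 0.05). Each library at 50 µg/mL was below each at 10 µg/mL. COL12A1, a collagen that coats fibrils, had 138, 135 and 106 CPM at 50 µg/mL, against 259, 265 and 249.6 CPM at 10 µg/mL (adjusted p = 1.4e-07, log2 -1.03 ± 0.09), and its replicate 3 at 50 µg/mL was the lowest of the 6. COL4A6, a basement membrane collagen, had 28.9, 25.6 and 24.7 CPM at 50 µg/mL, against 51.9, 54.6 and 50.4 CPM at 10 µg/mL (adjusted p = 4.3e-10, log2 -0.99 ± 0.06). The fall was smallest in the type VI chains COL6A1 (-0.20) and COL6A2 (-0.17), whereas COL6A3 of the same fibril fell by 0.81, and COL5A3 (-0.67, adjusted p = 0.069) and COL11A1 (-0.24, adjusted p = 0.075) did not pass.

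TNC, tenascin C, a glycoprotein of remodelled and tumour matrix (ENSG00000041982, chromosome 9, 115019578 to 115118257, minus strand), had 244, 235 and 200.4 CPM at 50 µg/mL, against 499, 484 and 458 CPM at 10 µg/mL (adjusted p = 1e-08, log2 -1.08 ± 0.08). FBN1, the microfibril protein fibrillin 1, had 238, 239 and 196 CPM at 50 µg/mL, against 406, 428 and 386 CPM at 10 µg/mL (adjusted p = 3e-07, log2 -0.86 ± 0.08). HMCN1, the large matrix protein hemicentin 1, had 12.2, 13.04 and 9.36 CPM at 50 µg/mL, against 20.6, 25.1 and 21.6 CPM at 10 µg/mL (adjusted p = 7.7e-05, log2 -0.96 ± 0.15). The doses did not overlap in these genes, and replicate 3 was the lowest library at 50 µg/mL in each. HAS2, the enzyme that spins hyaluronan, had 14.1, 15.4 and 14.4 CPM at 50 µg/mL, against 29.1, 29.3 and 27.996 CPM at 10 µg/mL (adjusted p = 1.5e-09, log2 -0.97 ± 0.06). TGFBI, an adhesion protein induced by TGF-beta, fell by 0.33 with 3269, 3285 and 3318 CPM at 50 µg/mL, against 4147, 4028 and 4199.5 CPM at 10 µg/mL (adjusted p = 4e-07). THBS2 (0.11, adjusted p = 0.3) and ELN (-0.56, adjusted p = 0.12) were the 2 glycoprotein members that did not pass.

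Of 19 tested enzymes that mature collagen 13 fell and none rose (median -0.18). PLOD2, a lysyl hydroxylase, had 172, 177 and 164 CPM at 50 µg/mL, against 234, 213 and 226 CPM at 10 µg/mL (adjusted p = 7.4e-05, log2 -0.39 ± 0.06). P4HA1, a prolyl hydroxylase, had 133, 136 and 127 CPM at 50 µg/mL, against 178, 161 and 177 CPM at 10 µg/mL (adjusted p = 2.8e-05, log2 -0.38 ± 0.05). LOXL2, a crosslinking lysyl oxidase, had 805, 716 and 764 CPM at 50 µg/mL, against 983, 948 and 989.7 CPM at 10 µg/mL (adjusted p = 5.8e-06, log2 -0.35 ± 0.04). Their doses were separate. Of 16 tested matrix proteases and inhibitors 8 fell and 1 rose (median -0.20). PLAT, the tissue plasminogen activator, had 111, 105 and 108 CPM at 50 µg/mL, against 182, 185 and 185 CPM at 10 µg/mL (adjusted p = 4.3e-10, log2 -0.77 ± 0.05). The member that rose was MMP14, a membrane-bound collagenase, with 1194, 1108 and 1147 CPM at 50 µg/mL, against 857, 879 and 901 CPM at 10 µg/mL (adjusted p = 3.2e-06, log2 0.39 ± 0.04). Of 18 tested YAP and TGF-beta targets 4 fell and 2 rose (median 0.01). The receptor kinase AXL (-0.39), the TGF-beta brake PMEPA1 (-0.30) and AJUBA (-0.27) were among those that fell, and ID3 (0.26) and ACTA2 (0.29) rose. The rises numbered 4 without the low-count filter and 1 in the fit of all 60 libraries, where ID3 did not pass (adjusted p = 0.314). The usual YAP targets CCN1 (0.09, adjusted p = 0.5) and CCN2 (0.16, adjusted p = 0.14) did not pass.

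Chaperones of the endoplasmic reticulum were lower, with 12 falls, no rise and 17 tested (median -0.28). Their summed level was 8549.5, 8801 and 8129 CPM at 50 µg/mL, against 11320.0, 10535 and 11101 CPM at 10 µg/mL, without overlap. HSPA5, the HSP70 chaperone BiP (ENSG00000044574, chromosome 9, 125234853 to 125241330, minus strand), had 1479, 1541 and 1343 CPM at 50 µg/mL, against 2452, 2185 and 2282 CPM at 10 µg/mL (adjusted p = 4.7e-08, log2 -0.67 ± 0.06). HSP90B1, the HSP90 of this compartment, had 816, 875 and 824 CPM at 50 µg/mL, against 1230.5, 1126 and 1199 CPM at 10 µg/mL (adjusted p = 8.1e-08, log2 -0.50 ± 0.04). Neither gene overlapped between doses. HYOU1, a large chaperone that exchanges nucleotide on BiP, had 302, 281 and 277 CPM at 50 µg/mL, against 412, 381 and 399.6 CPM at 10 µg/mL (adjusted p = 7.8e-07, log2 -0.47 ± 0.05). The disulfide isomerase gene PDIA6 had 380.1, 363 and 377 CPM at 50 µg/mL, against 497, 461 and 484 CPM at 10 µg/mL (adjusted p = 1.2e-06, log2 -0.36 ± 0.04). The last 2 were likewise apart. Members that did not pass included DNAJB9 (0.02, adjusted p = 0.91) and ERO1A (0.10, adjusted p = 0.21). Of 15 tested genes of degradation, transport and the stress sensors 5 fell and none rose (median -0.10), namely HERPUD1 (-0.14), SEC61A1 (-0.15), SEC61B (-0.28), SEC24D (-0.24) and SEC23B (-0.15). These falls numbered 3 without replicate 2 at 50 µg/mL or replicate 2 at 10 µg/mL, 2 without replicate 3 of either dose, 1 without replicate 1 at 10 µg/mL and 0 in the fit of all 60 libraries. The stress transcription factors XBP1 (-0.10, adjusted p = 0.23) and ATF6 (-0.07, adjusted p = 0.46) did not pass.

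The stress element of these promoters is CCAAT followed 9 bases later by CCACG, and the windows of the 2 chaperone genes with the largest falls show it. Given as before, from RefSeq on GRCh38.p14, are the 250 bases before the start of HSPA5 (chr9:125241344-125241593, minus strand) and HSP90B1 (chr12:103930160-103930409, plus strand), with both parts of each element in capitals. The second element of HSP90B1 lies on the other strand and reads CGTGG and then ATTGG.
HSPA5: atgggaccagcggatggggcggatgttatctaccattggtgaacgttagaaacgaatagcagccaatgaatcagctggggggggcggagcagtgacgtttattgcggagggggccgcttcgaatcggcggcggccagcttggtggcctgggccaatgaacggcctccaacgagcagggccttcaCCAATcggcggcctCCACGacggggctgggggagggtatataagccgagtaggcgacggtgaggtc
HSP90B1: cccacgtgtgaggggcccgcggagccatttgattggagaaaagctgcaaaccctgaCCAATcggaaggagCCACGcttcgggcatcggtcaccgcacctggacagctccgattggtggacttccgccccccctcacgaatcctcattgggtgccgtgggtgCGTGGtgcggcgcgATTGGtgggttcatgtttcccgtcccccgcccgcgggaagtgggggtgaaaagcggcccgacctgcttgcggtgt
The element was in 14 of all 11698 windows (0.12%), in none of the 1136 genes that rose and in 6 of the 1213 that fell (0.495%). Of the 16 list members with a window 6 held it, and 5 of those fell, namely HSPA5, HSP90B1, CRELD2 (-0.28), CANX (-0.26) and CALR (-0.18). The remaining holder in the list was ERO1B (-0.13, adjusted p = 0.32), and outside it TRIM5 (-0.21) fell, while XBP1, SERP1 (-0.13, adjusted p = 0.16) and FICD (0.11, adjusted p = 0.31) were among the holders that did not pass.

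Medians of the lists of lipid synthesis, sugar metabolism, translation and cell division lay below 0 by small amounts. FASN, fatty acid synthase, had 205, 185 and 185 CPM at 50 µg/mL, against 257, 272 and 263 CPM at 10 µg/mL (adjusted p = 1.9e-06, log2 -0.46 ± 0.05). ACLY, which makes its acetyl-CoA, had 318, 307 and 299 CPM at 50 µg/mL, against 381, 387 and 379 CPM at 10 µg/mL (adjusted p = 2.9e-06, log2 -0.31 ± 0.04). The doses were separate, and 7 of 14 tested genes of fatty acid synthesis fell (median -0.20). LPIN1 rose (0.19), a call that ended without replicate 1 or 2 at 50 µg/mL or any library at 10 µg/mL. Cholesterol synthesis had 7 falls among 25 tested and no rise (median -0.09). In the list of liver X receptor and cholesterol efflux genes the receptors NR1H3 (0.50) and NR1H2 (0.23) rose, LPCAT3 (-0.33) fell and 5 of 8 did not pass, among them the exporter ABCA1 (0.08, adjusted p = 0.57). Neither receptor passed without replicate 1 at 50 µg/mL or replicate 1 at 10 µg/mL, and 1 did without replicate 3 at 50 µg/mL or replicate 2 at 10 µg/mL. NR1H3 also did not pass by DESeq2, without the low-count filter or with only the 6 libraries compared. NR1H2 did not pass in the fit of all 60 libraries. Glycolysis split, with 7 falls and 4 rises of 19 tested (median -0.11). LDHA, lactate dehydrogenase A, had 1071, 1085 and 1116 CPM at 50 µg/mL, against 1562, 1346 and 1516 CPM at 10 µg/mL (adjusted p = 2.8e-06, log2 -0.43 ± 0.05). PKM, pyruvate kinase, had 2433, 2297 and 2511 CPM at 50 µg/mL, against 3041, 2845 and 2956 CPM at 10 µg/mL (adjusted p = 6.6e-05, log2 -0.29 ± 0.04). ENO2, the neuronal enolase, rose with 132, 126 and 143 CPM at 50 µg/mL, against 86.98, 82.4 and 86.5 CPM at 10 µg/mL (adjusted p = 3.8e-08, log2 0.65 ± 0.05), and the glucose transporters SLC2A3 (0.49) and SLC2A1 (0.31) and hexokinase HK2 (0.25) rose. Falls in glycolysis numbered 4 without replicate 2 at 50 µg/mL or replicate 3 at 10 µg/mL. Hypoxia-response genes had 4 rises, NDRG1 (0.55), ADM (0.49), KDM3A (0.23) and PFKFB3 (0.23), and 1 fall, the carbonic anhydrase CA9 (-0.65), of 14 tested (median 0.06).

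Of 18 aminoacyl-tRNA synthetases 7 fell and none rose (median -0.10). VARS1, which charges valine, had 127, 112 and 123 CPM at 50 µg/mL, against 165, 166 and 164 CPM at 10 µg/mL (adjusted p = 2e-06, log2 -0.46 ± 0.05). EPRS1, which charges glutamate and proline, had 146, 147 and 139 CPM at 50 µg/mL, against 199, 193 and 189 CPM at 10 µg/mL (adjusted p = 4.9e-07, log2 -0.43 ± 0.04). Their doses did not overlap. Mitosis genes had 8 falls and no rise of 24 (median -0.10), with KIF20A, a kinesin of cytokinesis, at 103, 104 and 101 CPM at 50 µg/mL, against 128, 127 and 134 CPM at 10 µg/mL (adjusted p = 0.00013, log2 -0.33 ± 0.05). The mitosis falls numbered 4 without replicate 1 or 3 at 50 µg/mL and 5 without replicate 1 at 10 µg/mL. DNA replication had 7 falls and no rise of 25 (median -0.10), with RRM2, the small subunit of ribonucleotide reductase, at 111, 110.0 and 112 CPM at 50 µg/mL, against 147, 146 and 148 CPM at 10 µg/mL (adjusted p = 3.4e-07, log2 -0.40 ± 0.04). The nuclear-encoded respiratory chain had 4 falls and no rise of 23 (median -0.06), the ATP synthase subunits ATP5F1A (-0.29) and ATP5F1B (-0.24) and the core proteins UQCRC1 (-0.20) and UQCRC2 (-0.15), of which 2 were left without replicate 2 at 50 µg/mL. Cytosolic ribosomal proteins had 5 falls of 25, RPS27A (-0.21), RPL23 (-0.19), RPS4X (-0.19), RPL5 (-0.16) and RPLP0 (-0.12) (median -0.09). They numbered 3 without replicate 1 at 50 µg/mL, 2 without replicate 1 or 3 at 10 µg/mL and 0 in the fit of all 60 libraries. Mitochondrial genome transcripts had 2 rises of 15, MT-ATP8 (0.54) and MT-ND6 (0.42), in which the doses overlapped. These rises numbered 11 without the low-count filter, 4 without replicate 1 of either dose, 1 without replicate 2 at 50 µg/mL, and 0 without replicate 3 at 50 µg/mL or replicate 2 or 3 at 10 µg/mL. MT-ND6 also did not pass with upper quartile scaling, by DESeq2 or in the fit of all 60 libraries. The list of membrane repair and calcium genes had 4 falls of 15 tested (median 0.02), S100A10 (-0.53) and its partner ANXA2 (-0.22), ANXA6 (-0.26) and PDCD6IP (-0.13), and 2 rises, ANXA4 (0.20) and CHMP4B (0.13), of which no more than 1 was left without any of the 6 libraries.

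Other large falls fell outside these lists. PTPRQ, a receptor-type phosphatase, had 4.53, 4.501 and 3.06 CPM at 50 µg/mL, against 10.3, 9.27 and 8.03 CPM at 10 µg/mL (adjusted p = 5.2e-06, log2 -1.2 ± 0.14). SCN3A, a voltage-gated sodium channel of developing neurons, had 3.399, 2.88 and 2.42 CPM at 50 µg/mL, against 6.44, 6.36 and 6.43 CPM at 10 µg/mL (adjusted p = 1.9e-05, log2 -1.15 ± 0.16). The phosphatase PTPRC, known as the leukocyte antigen CD45, had 3.16, 3.38 and 3.79 CPM at 50 µg/mL, against 7.88, 7.12 and 7.49 CPM at 10 µg/mL (adjusted p = 6.9e-08, log2 -1.12 ± 0.10). The doses were separate in each, and the leukocyte genes CD3E, AIF1 and TYROBP were at 0 CPM in all 6 libraries. Of 7 leukocyte and microglia markers 3 were tested, and the 2 beside PTPRC did not pass. Summed, the 7 had 192.7, 179.1 and 193.5 CPM at 50 µg/mL, against 202.1, 148.5 and 182.4 CPM at 10 µg/mL, with overlap. On the log2 scale SLC38A4, an amino acid transporter, fell by 1.06 and LIN7A, a scaffold of cell polarity, by 1.05. RASA4B fell by 0.98 and MYCBP by 0.96, and none of the deposited counts of these 2 was whole. The imprinted retrotransposon-derived gene PEG10 fell by 0.93. PEG10 had 67.000, 63.4 and 56.4 CPM at 50 µg/mL, against 119.8, 119 and 117 CPM at 10 µg/mL (adjusted p = 1.8e-07). Neuronal markers detected in the line fell in 3 of 3 tested genes, SNAP25 (-0.37), TUBB3 (-0.36) and SYT1 (-0.22). The call of SYT1 ended without replicate 1 or 3 at 50 µg/mL, without any 1 library at 10 µg/mL and in the fit of all 60 libraries. The glial list had 4 falls of 6 tested, NES (-0.35), VIM (-0.25), CD44 (-0.25) and SLC1A3 (-0.16), and 1 rise, CHI3L1 (0.20). Of the glial calls 2 falls were left without replicate 3 at 50 µg/mL, where the rise ended too, or without replicate 1 at 10 µg/mL. The epithelial keratin KRT18 had 59.7, 64.6 and 62.6 CPM at 50 µg/mL, against 102, 99.5 and 104 CPM at 10 µg/mL (adjusted p = 3.1e-09, log2 -0.71 ± 0.05), without overlap. Its partner KRT8 fell by 0.21, a call that ended without replicate 1 or 2 at 50 µg/mL or any library at 10 µg/mL, and EPCAM and CDH1 were near 0 CPM in both groups. The KRT8 call also ended by DESeq2, without the low-count filter, in the fit of all 60 libraries and with only the 6 libraries compared. Among 9 tested genes of the EGF receptor and its ligands and feedback (median -0.15), the ligand HBEGF (-0.28) and the receptor brake LRIG1 (-0.16) fell and ERRFI1 (0.21) rose. LRIG1 lost its call without replicate 2 or 3 of either dose, and ERRFI1 without replicate 2 or 3 at 50 µg/mL or replicate 1 or 3 at 10 µg/mL. Both genes also lost the call in the fit of all 60 libraries. LRIG1 lost it by DESeq2, without the low-count filter and with only the 6 libraries compared as well. The endothelial markers PECAM1 (-0.65, adjusted p = 0.25) and KDR (0.00, adjusted p = 0.99) did not pass, and of the oligodendrocyte markers MBP rose (0.33, adjusted p = 0.047), a call that ended without replicate 1 or 2 at 50 µg/mL or replicate 2 or 3 at 10 µg/mL. The MBP call also ended with upper quartile scaling, by DESeq2, in the fit of all 60 libraries and with only the 6 libraries compared.

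The next 5-fold step, 250 against 50 µg/mL, called 4568 genes (27%), 1965 higher (11.6%) and 2603 lower (15.4%). It shares the libraries at 50 µg/mL with the first step, so the values are set side by side and only the difference between the steps, upper minus lower, was tested. That difference passed for 744 genes (4.39%), of which 123 were positive (0.726%) and 621 negative (3.67%); without replicate 1 at 50 µg/mL it passed for 428. Lysosome genes had a median of -0.07 over the upper step, against 0.28 over the lower, and 18 of 30 differed negatively and none positively. NRF2 targets had 0.07 over the upper step and 0.37 over the lower, with 10 of 24 differing negatively and none positively. HMOX1, GPNMB, SQSTM1 and FTL were among the genes whose difference was negative and passed, whereas TXNRD1 rose over both steps (adjusted p = 9.1e-10, log2 0.60 ± 0.04 over the upper) and its difference did not pass. Collagens and chaperones had medians below 0 over both steps, -0.87 over the upper and -0.65 over the lower step in the collagens, where 5 of 14 differed negatively, and -0.27 and -0.28 in the chaperones, where none of 17 passed the test of the difference. Glycolysis (-0.45 over the upper and -0.11 over the lower step, 14 of 19 negative), tRNA synthetases (-0.37 and -0.10, 11 of 18 negative) and mitosis (-0.27 and -0.10, 6 of 24 negative) had the lower median over the upper step.

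**Figure D3:**
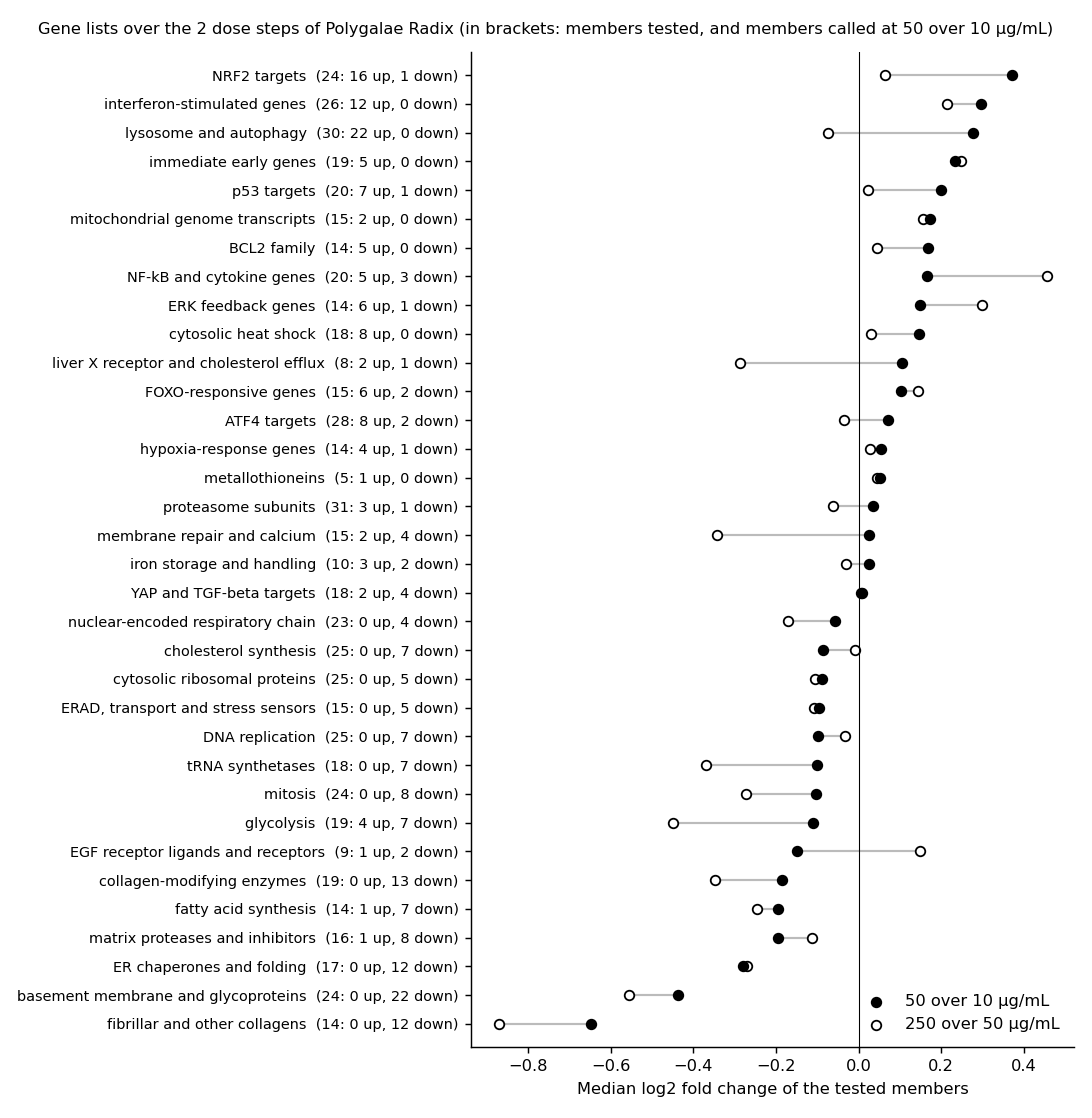
Median log2 fold change of the tested members of each of the 34 programme lists over 50 over 10 µg/mL (filled) and 250 over 50 µg/mL (open), sorted by the filled points. Collagens and glycoproteins lie below 0 in both steps, whereas NRF2 targets and lysosome genes lie at 0.37 and 0.28 in the first step and at 0.07 and -0.07 in the second.

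The single genes below were named by rule, most of them for a large negative difference between the steps, and need not resemble the list medians. GPNMB averaged 9.67 ± 1.06 CPM in vehicle, 19.4 ± 0.971 CPM at 10, 61.1 ± 0.178 CPM at 50 and 50.4 ± 0.455 CPM at 250 µg/mL (SD, n = 3 each), and its upper step was negative (adjusted p = 8.4e-05, log2 -0.28 ± 0.04; difference -1.93 ± 0.08, adjusted p = 3.3e-12). HMOX1 averaged 56.5 ± 1.38 CPM in vehicle, 210.4 ± 12.7 CPM at 10, 687 ± 14.96 CPM at 50 and 999 ± 21.3 CPM at 250 µg/mL, so its upper step was a smaller rise (adjusted p = 4e-07, log2 0.54 ± 0.06; difference -1.17 ± 0.10, adjusted p = 3.6e-07). IGFN1 averaged 6.42 ± 0.393 CPM in vehicle, 21.3 ± 2.97 CPM at 10, 70.8 ± 5.85 CPM at 50 and 77.7 ± 3.43 CPM at 250 µg/mL and did not pass over the upper step (log2 0.13; difference -1.60 ± 0.18, adjusted p = 1.2e-05). KCP did not pass over the upper step either (log2 -0.05; difference -2.36 ± 0.24, adjusted p = 6.3e-06). ACTA2, smooth muscle actin, averaged 102 ± 4.38 CPM in vehicle, 109 ± 8.797 CPM at 10, 133 ± 9.53 CPM at 50 and 62.2 ± 2.74 CPM at 250 µg/mL, a small rise followed by a fall (adjusted p = 9.3e-11, log2 -1.1 ± 0.06; difference -1.39 ± 0.11, adjusted p = 2e-07).

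The 4 genes named for the largest positive differences were picked among genes with separate libraries at 10 and 50 µg/mL and at least 5 CPM at one of them. A gene that stayed level between 10 and 50 µg/mL could not be named. All 4 fell between 10 and 50 µg/mL and rose between 50 and 250 µg/mL. HAS2 averaged 48.5 ± 3.86 CPM in vehicle, 28.8 ± 0.687 CPM at 10, 14.7 ± 0.661 CPM at 50 and 20.8 ± 0.244 CPM at 250 µg/mL (adjusted p = 6.5e-06, log2 0.50 ± 0.07; difference 1.48 ± 0.11, adjusted p = 2e-07). IL11 averaged 69.3 ± 2.696 CPM in vehicle, 37.6 ± 0.891 CPM at 10, 25.4 ± 0.735 CPM at 50 and 37.5 ± 0.55 CPM at 250 µg/mL (adjusted p = 4.8e-08, log2 0.56 ± 0.05; difference 1.12 ± 0.09, adjusted p = 2.4e-07). In neither gene did the libraries at 50 µg/mL overlap those at the doses on either side. HHIP, which binds and limits hedgehog ligands, averaged 8.56 ± 0.653 CPM in vehicle, 5.605 ± 0.648 CPM at 10, 3.06 ± 0.347 CPM at 50 and 4.05 ± 0.199 CPM at 250 µg/mL (adjusted p = 0.012, log2 0.40 ± 0.11; difference 1.26 ± 0.19, adjusted p = 0.00041). TSLP, an epithelial alarm cytokine, averaged 10.7 ± 0.339 CPM in vehicle, 9.67 ± 0.838 CPM at 10, 5.52 ± 0.384 CPM at 50 and 7.02 ± 0.842 CPM at 250 µg/mL (adjusted p = 0.0099, log2 0.35 ± 0.10; difference 1.16 ± 0.17, adjusted p = 0.00025). GDF15 (adjusted p = 1.8e-11, log2 1.36 ± 0.07) went on rising over the upper step, while TNC (adjusted p = 2.8e-11, log2 -1.57 ± 0.08), COL1A2 (adjusted p = 1.2e-13, log2 -1.28 ± 0.05) and HSPA5 (adjusted p = 4.8e-09, log2 -0.72 ± 0.06) went on falling.

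**Figure D4:**
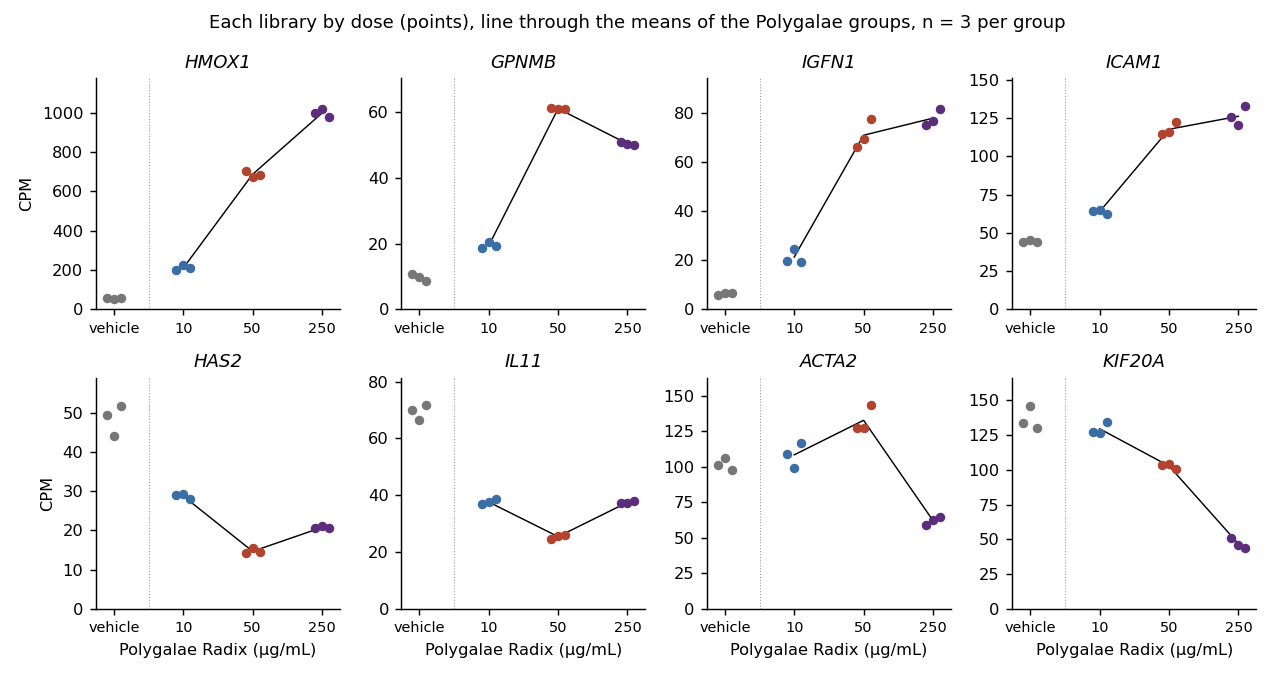
CPM of 8 genes in each library of vehicle and of 10, 50 and 250 µg/mL Polygalae Radix, with a line through the means of the 3 extract groups; vehicle, left of the dotted line, belongs to another library set. HMOX1, GPNMB, IGFN1 and ICAM1 gain most between 10 and 50 µg/mL, HAS2 and IL11 are lowest at 50 µg/mL, ACTA2 is highest there, and KIF20A loses most between 50 and 250 µg/mL.

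Aucklandiae Radix, the root of another herb whose libraries carry the same set number, was given at 100 and 20 µg/mL, the same 5-fold ratio at other doses. Its step called 8 genes (0.0472%), 5 higher (0.0295%) and 3 lower (0.0177%), and DESeq2 called 23. An unadjusted p under 0.05 was reached by 1022 of the 16934 tested genes, and with no effect a share of about 0.05 would reach it. Leaving out any 1 of the 6 Aucklandiae libraries left between 1 and 4 calls. The rises at 100 µg/mL included ANGPTL4 (0.61), FOSL1 (0.42), NQO1 (0.25) and FTH1 (0.24), and the falls were in LYPD1 (-0.26), SFRP2 (-0.33) and CLIC3 (-0.55), named here after their values were seen. NQO1, FTH1 and FOSL1 rose and LYPD1 (-0.53) and CLIC3 (-0.84) fell over the Polygalae step too, while SFRP2 rose (0.17) there. The difference between the herbs' steps, Polygalae minus Aucklandiae, passed for 1299 genes (7.67%), 594 positive (3.51%) and 705 negative (4.16%). Because the doses differ between the herbs, this difference belongs to these dose pairs. GDF15 had 3.87, 2.95 and 2.698 CPM at 100 µg/mL, against 4.32, 3.698 and 3.51 CPM at 20 µg/mL of Aucklandiae, with overlap, and its difference was 2.59 ± 0.18, adjusted p = 2.1e-08. Genes were named for this difference only where the Polygalae doses were separate and one of them had at least 5 CPM. The other large positive differences among such genes were in KCP (2.41 ± 0.33, adjusted p = 7.6e-05), IGFN1 (1.84 ± 0.20, adjusted p = 6e-06) and GPNMB (1.76 ± 0.08, adjusted p = 4.5e-11). The largest negative ones among such genes were in HAS2 (-1.19 ± 0.08, adjusted p = 2.2e-08), TNC (-1.16 ± 0.11, adjusted p = 1.7e-06), PTPRQ (-1.06 ± 0.19, adjusted p = 0.0014) and SCN3A (-1.03 ± 0.21, adjusted p = 0.0029). TNC had 751, 767 and 768 CPM at 100 µg/mL, against 695, 724 and 749 CPM at 20 µg/mL of Aucklandiae, and these libraries did not fall with dose. Of the lysosome list, 20 of 30 members differed positively and none negatively. Of the NRF2 targets 12 of 24 differed positively and 1 negatively. Of the collagens 10 of 14 and of the chaperones 8 of 17 differed negatively and none positively. The medians of these 4 lists over the Aucklandiae step were -0.05, 0.08, -0.03 and -0.04.

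**Figure D5:**
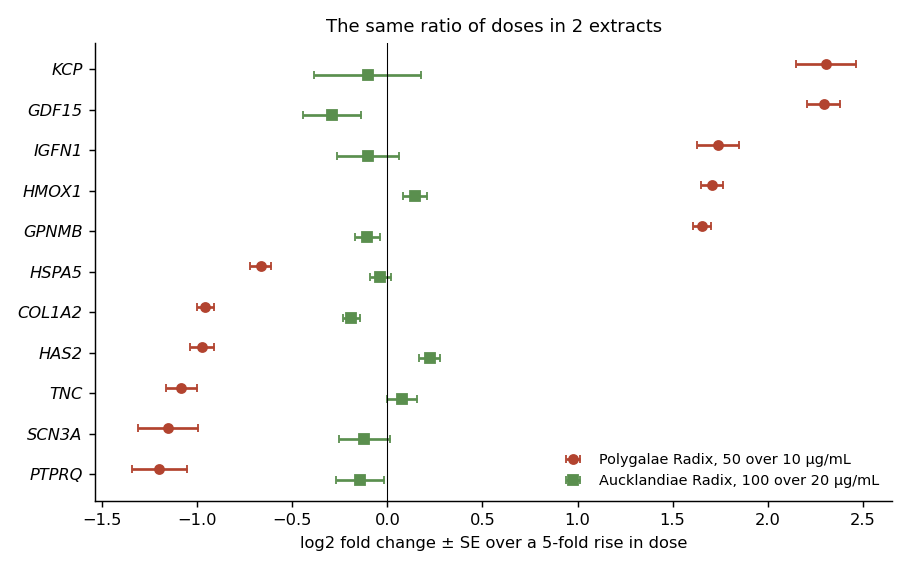
Log2 fold change ± SE over a 5-fold rise in dose for 11 genes, with Polygalae Radix (50 over 10 µg/mL, red circles) above Aucklandiae Radix (100 over 20 µg/mL, green squares) in each row. Polygalae values run from -1.2 for PTPRQ to 2.31 for KCP, while all Aucklandiae values lie between -0.29 and 0.22. Most of these genes were picked for a large difference among genes with separate Polygalae doses, which favours genes that move over the Polygalae step.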

How the data were processed

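SW1783 cells were profiled by RNA-seq (directional MGIEasy mRNA libraries from total RNA, 100 bp paired reads, per the labels' protocols). The authors deposited expected counts per gene, estimated by RSEM 1.3.3 from STAR 2.7.3a alignments to hg38 after Trim Galore 0.6.5 and FastQC 0.11.9, per the submitters' processing notes; neither source used here gives the strand setting or the annotation release. RSEM divides reads that map to several genes, so 11.02% of values are not whole, and near-identical genes share reads.

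Expected counts were rounded. TMM factors were computed over the 60 libraries, and edgeR 4.0.16 quasi-likelihood models (R 4.3.3) were fitted to the 18 Polygalae and Aucklandiae libraries of set 4, with 12 residual degrees of freedom, on 16934 genes passing filterByExpr at a minimum count of 10. Calls are Benjamini-Hochberg adjusted p under 0.05 over all tested genes. Library totals were 18.64 to 30.12 M in set 4. CPM use TMM-scaled totals, and means carry the SD of 3 libraries. The procedure was tested on simulated counts, drawn from a negative binomial model with the spread estimated from these libraries. Such a test checks the code and cannot show how the calls hold in the real libraries. Replicates of a dose differed by more than sampling noise (chi-square per degree of freedom 3.66 to 13.3). Alternatives were DESeq2 1.42.0, other scalings, no filter, other sets of libraries, a replicate block and leaving out each library.

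Genes are named by rule: the 14 largest called rises and falls with separate doses and at least 5 CPM, the 4 members of each list with the smallest p, the 4 largest each way in each difference, and GDF15, HMOX1, COL1A2, TNC and HSPA5. Some genes that the rule selects are not reported here. The comparison, the 40 lists, the motifs and the rule were chosen with earlier results of these data known. Gene coordinates are those of GENCODE 29 on GRCh38, and 56558 of 60675 identifiers had a current symbol. Promoters are the first RefSeq window listed for a gene (GRCh38.p14).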

Additional observations from a re-analysis of the deposited data

Results flagged for a closer look

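The 5-fold dose step of Polygalae Radix and that of Aucklandiae Radix differed by a direct test in 1299 genes. The 8 named here are the largest differences each way among genes with separate Polygalae doses and at least 5 CPM at one of them. A gene without separate Polygalae doses could not be named. On the log2 scale GDF15 changed by 2.29 over the Polygalae step and by -0.29 over the Aucklandiae step (difference 2.59), KCP by 2.31 and -0.10 (difference 2.41), IGFN1 by 1.74 and -0.10 (difference 1.84) and GPNMB by 1.66 and -0.11 (difference 1.76). On the other side stood HAS2 with -0.97 over the Polygalae and 0.22 over the Aucklandiae step (difference -1.19), TNC with -1.08 and 0.08 (difference -1.16), PTPRQ with -1.2 and -0.14 (difference -1.06) and SCN3A with -1.15 and -0.12 (difference -1.03). The herbs were compared at different doses, and the part of dose in these differences cannot be told apart from that of the herb.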

How the results depend on the processing

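The count for 50 against 10 µg/mL of Polygalae was 2974. It was 1943 in a fit of all 60 libraries and 2224 with only the 6 libraries compared. Leaving out 1 of the 6 libraries gave 2201 to 2721. The difference between the dose steps, 744, became 407 with all 60 libraries, 442 with only the libraries compared, 1161 in a fit of 59 libraries without replicate 1 of the high Liriopis dose, a setting chosen after seeing the data, and 428 to 767 with 1 library left out. The Aucklandiae step, 8, became 23 by DESeq2, 125 without the low-count filter, 3 with all 60 libraries, 5 with only its own libraries, 23 in the fit of 59 libraries and 1 to 4 with 1 library left out. The difference between the herbs, 1299, became 736 with all 60 libraries and 976 to 1394 with 1 library left out. The cause of these moves was not tested. The replicate numbers were not taken to pair the samples: deviations of same-numbered libraries at 50 and 10 µg/mL correlated at 0.00469, 0.130 and 0.158, and not every library correlated best with its own number. With a replicate block the counts were 2881 for 50 against 10 µg/mL, 4488 for 250 against 50 µg/mL, 691 for the step difference, 9 for the Aucklandiae step and 1235 for the herb difference, and the block moved none of them by over 1.5 times. Upper quartile scaling gave 1341 rises and 1668 falls, against 1470 and 1504 as reported. Of 160 named genes called, 126 kept direction and call under every alternative that gave a value (14 each, and 13 for HRK, to which DESeq2 gave no adjusted p), 34 lost the call under at least 1, and 0 reversed. Of 56 counts of list members 29 moved by over 1.5 times somewhere, and those of NRF2 targets (13 to 18 rises), lysosome genes (19 to 23 rises), collagens (11 to 14 falls) and chaperones (9 to 13 falls) did not. With all 60 libraries falls numbered 0 in place of 2 among ATF4 targets, 4 in place of 7 in fatty acid synthesis and in glycolysis, and 2 in place of 4 in the membrane repair and in the glial list, rises 3 in place of 7 among p53 targets and 2 in place of 5 among immediate early genes, and the calls of GADD45A (adjusted p = 0.0681) and ANXA2 (adjusted p = 0.103) ended. With only the libraries compared DNA replication had 4 falls in place of 7, and by DESeq2 the ribosomal proteins had 8 in place of 5. MT-ND6 did not pass with a replicate block (adjusted p = 0.0651).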
